A study of Mus musculus with 8 samples.

Results

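The SR splicing factors are a family of RNA-binding proteins. Here 10 of their genes were followed after an induced deletion at Prmt5 in mouse embryonic stem cells. The 10 genes (Srsf1, Srsf2, Srsf3, Srsf4, Srsf5, Srsf6, Srsf7, Srsf9, Srsf10 and Srsf11) were found by symbol, 1 row each, among 38991 gene identifiers. The cells were male mouse embryonic stem cells on a C57BL/6 background, derived from blastocysts at embryonic day 3.5. They were grown in 2i medium, in which inhibitors block differentiation signals. PD0325901 was given at 0.5 µM and the passage was below 20 in all samples. There were 4 iPKO libraries, from cells with an induced deletion at Prmt5, and 4 iPHet libraries, the control genotype. Both genotypes received 2 µM 4-hydroxytamoxifen for 48 hours, so the agent itself was not a difference between them. The name iPHet reads as heterozygous, and the control need not carry both copies of Prmt5 intact. The labels name PC4 as the iPKO line and PC1 as the iPHet line for most experiments, so that genotype and line cannot be told apart. The driver of the deletion is not given in the sources used here.

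SR proteins carry RNA recognition motifs, which bind short sequences in exons, and a tail rich in arginine-serine repeats, through which they recruit the splicing machinery to nearby splice sites. The tail is phosphorylated by SRPK kinases in the cytoplasm and by CLK kinases in the nucleus, and this sets where the proteins go and what they bind. Many SR genes limit their own output: a surplus of the protein favours an exon with an early stop codon in its own messenger RNA, and such transcripts are destroyed by nonsense-mediated decay. PRMT5, the enzyme whose gene was targeted here, methylates arginines of the Sm proteins, which form the core of the spliceosome's small nuclear particles. The comparison asks how the messenger RNAs of the SR genes stood in cells that had lost most of the Prmt5 transcript.

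The 4 genes that passed the main test between the genotypes, with each library counted as separate, are described in full below. The 250 bases before their RefSeq starts are shown so that their promoters can be compared. The sequences are those of RefSeq on GRCm38.p6, the build that the files' mm10 coordinates match, each on the strand of its gene. All 10 genes had an entry. Capitals mark exact matches, on either strand, to short promoter motifs. The letters TATAA stand for the TATA box. The CCAAT box is CCAAT. The core bound by ETS factors is CCGGAA. The GC box is CCCGCC. Neighbouring matches that touch run together.
Srsf7, chr17:80207306-80207555, minus strand: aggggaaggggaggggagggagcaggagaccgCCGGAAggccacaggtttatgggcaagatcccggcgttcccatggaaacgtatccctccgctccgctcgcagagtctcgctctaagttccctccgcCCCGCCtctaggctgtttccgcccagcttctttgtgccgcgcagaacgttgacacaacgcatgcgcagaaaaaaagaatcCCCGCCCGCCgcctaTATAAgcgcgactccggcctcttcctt
Srsf11, chr3:158036607-158036856, minus strand: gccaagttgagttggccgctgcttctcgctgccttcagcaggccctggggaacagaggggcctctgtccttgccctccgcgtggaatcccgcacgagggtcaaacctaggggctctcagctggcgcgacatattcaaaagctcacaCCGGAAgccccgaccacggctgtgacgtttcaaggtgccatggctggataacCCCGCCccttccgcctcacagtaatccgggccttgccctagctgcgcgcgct
Srsf6, chr2:162931258-162931507, plus strand: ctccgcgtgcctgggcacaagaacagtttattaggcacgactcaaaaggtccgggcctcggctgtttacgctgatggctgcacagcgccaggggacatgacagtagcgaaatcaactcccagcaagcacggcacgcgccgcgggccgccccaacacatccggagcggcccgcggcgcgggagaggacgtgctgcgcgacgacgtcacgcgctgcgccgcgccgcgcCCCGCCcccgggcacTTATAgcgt
Srsf9, chr5:115326927-115327176, plus strand: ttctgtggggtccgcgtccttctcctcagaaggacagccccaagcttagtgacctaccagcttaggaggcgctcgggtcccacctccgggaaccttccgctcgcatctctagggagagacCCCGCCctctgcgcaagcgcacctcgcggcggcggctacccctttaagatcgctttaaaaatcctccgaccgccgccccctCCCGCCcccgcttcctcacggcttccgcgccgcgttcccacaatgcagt

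The 4 windows were rich in G and C. Their G and C content was 61.6% for Srsf7, 63.6% for Srsf11, 68.4% for Srsf6 and 65.2% for Srsf9. The median was 52.4% over 32851 windows of the same length in the table. The windows of the uncalled SR genes ranged from 56.8% (Srsf5) to 77.2% (Srsf4), which spans the values of these 4. The GC box was the motif found in all 4, and it occurs in 32.5% of all windows. The ETS core was present before Srsf7 and Srsf11 and not before Srsf6 or Srsf9, and 12.03% of all windows hold it. The TATA letters lay before Srsf7 and Srsf6, and 22.8% of all windows hold them. The CCAAT letters were in none of these 4 windows, and 33.8% of all windows hold them. Among all 10 genes the GC box was found before 9, the ETS core before 6, the TATA letters before 4 and the CCAAT letters before 3.

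The targeted gene followed the labels. Prmt5 was at 11.8, 14.5, 12.4 and 15.0 FPKM (fragments scaled to transcript length and library size) in iPKO libraries 1 to 4, against 52.8, 70.8, 54.3 and 72.2 FPKM in iPHet libraries 1 to 4. The iPKO mean was 21.5% of the iPHet mean. Over all genes, FPKM summed to 411827 to 417539 in the iPKO libraries and 417672 to 458856 in the iPHet libraries. Relative depth, read from the ratios of very low values, was 0.865 to 1.24 in iPKO and 0.774 to 1.01 in iPHet, taken relative to iPHet 1, while the absolute depth is unknown. All 7 stem cell markers were expressed in both genotypes, at a summed 1203 to 1318 FPKM in iPKO and 1220 to 1482 FPKM in iPHet. The 9 feeder fibroblast markers summed to 2.35 to 3.21 FPKM in iPKO and 2.17 to 2.98 FPKM in iPHet. Lum and Postn were listed at 0 in all libraries, and Dcn and Twist2 in all iPKO libraries. Thy1, Twist1 and Col1a1 were above 0 in all libraries. Thy1 was at 0.902 to 1.39 FPKM in iPKO and 1.05 to 1.68 FPKM in iPHet. Twist1 was at 0.964 to 1.70 FPKM in iPKO and 0.546 to 1.27 FPKM in iPHet. Libraries 1 and 3 of a genotype resembled each other, as did libraries 2 and 4. The SD of the log2 difference between libraries, over all tested genes, was 0.305 to 0.409 within these pairs and 0.573 to 0.660 between them. Separate cultures are not stated for the libraries of 1 genotype, and the p-values below then measure only how far these libraries spread, which may be technical.

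In iPKO cells the SR genes as a family stood close to their level in iPHet cells, with a different make-up. Srsf7 rose 1.24-fold and Srsf11 rose 1.22-fold, Srsf6 was 1.18-fold and Srsf9 1.39-fold lower, and the other 6 were not called. The genes were tested with limma on log2(FPKM + 1) over the 12462 genes whose iPKO or iPHet mean reached 1 FPKM, and called at a Benjamini-Hochberg adjusted p under 0.05. All 10 SR genes passed the filter in both genotypes, with means of at least 10.6 FPKM. Of the 10, 2 were called higher and 2 lower. Of all tested genes 15.8% were called, 6.3% higher and 9.53% lower. The same 4 SR genes were those whose libraries did not overlap between the genotypes, against 25.1% of all tested genes, 10.1% higher and 15% lower. The median log2 change of the 10 genes was -0.04, and that of all tested genes was -0.04 as well. Their median absolute log2 change was 0.19, again the value of all tested genes. In bulk RNA, fewer cells with a transcript and less of it per cell cannot be told apart.

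The number of genes called differed with how the likeness of libraries 1 and 3, and of 2 and 4, entered the fit. With the replicate number as a block 4 SR genes were called, against 27.5% of all genes, and with an odd/even term 5, against 37.9%. The odd libraries alone gave 6 called SR genes, against 45.4% of all genes, and the even libraries alone 5, against 40.2%. Averaging libraries 1 with 3 and 2 with 4 left 2 values per genotype, and limma then called 0 of the 10 SR genes, against 7 of all genes (0.0562%). There 1 SR gene and 1126 of all genes were at an unadjusted p under 0.05. Prmt5, the targeted gene, was not called in that fit either (limma adjusted p = 0.191). The fit therefore cannot decide on the smaller changes of the SR genes. With an odd/even term besides, 0 SR genes were called, against 6 of all genes (0.0481%), with 1 SR gene and 1982 of all genes at an unadjusted p under 0.05. Among protein-coding genes alone that fit called 0 SR genes, against 1.77% of the genes tested, with 2 SR genes and 2263 of all genes at an unadjusted p under 0.05. Of the 10 SR genes, 3 were called after median-ratio scaling, against 14.6% of all genes, and 3 after quantile normalization, against 15.1%. With no filter 4 were called, against 9.02%, and with a minimum of 5 FPKM 4, against 18.4%.

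**Figure D1:**
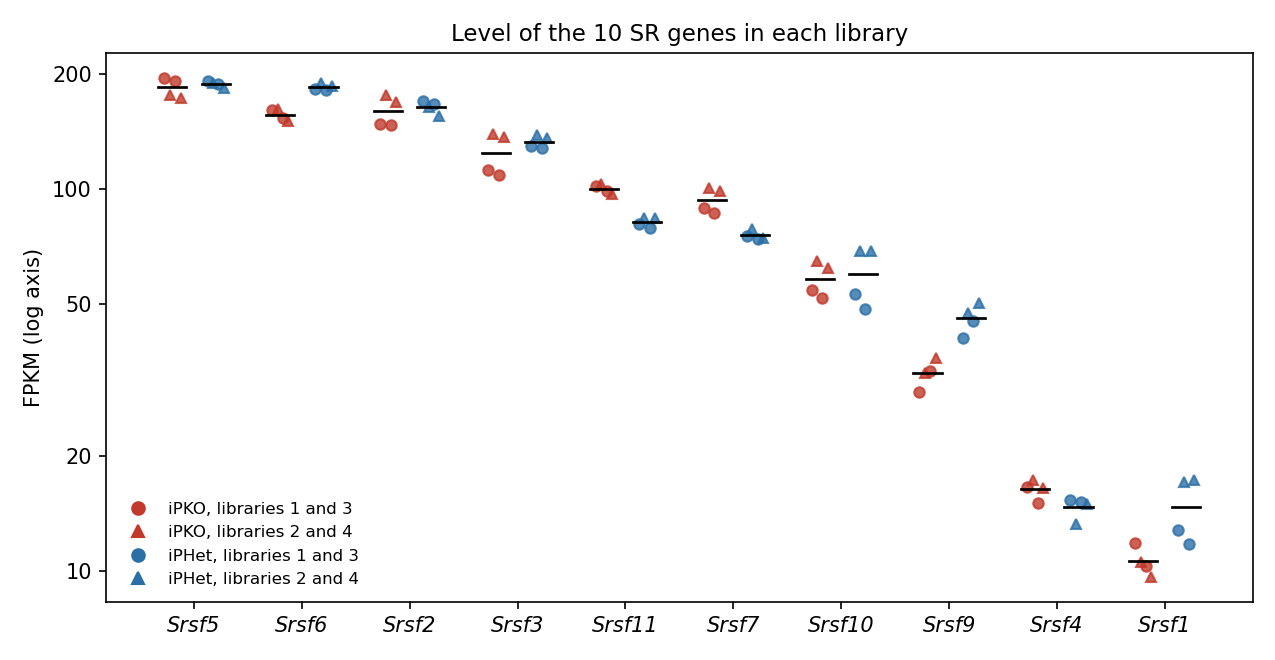
FPKM of the 10 SR genes in each library on a log axis, with iPKO in red at the left and iPHet in blue at the right of each gene; circles are libraries 1 and 3, triangles are libraries 2 and 4, and black bars are the means of 4 libraries. The groups are apart for Srsf6, Srsf11, Srsf7 and Srsf9, and for Srsf10 the circles and triangles of a genotype lie further apart than the genotype means.

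Summed over the 10 genes, the level was 918, 981, 896 and 948 FPKM in iPKO libraries 1 to 4, against 951, 988, 937 and 969 FPKM in iPHet libraries 1 to 4. The ranges overlapped, and the means of 936 ± 36.9 FPKM in iPKO and 961 ± 22.4 FPKM in iPHet (SD, n = 4 each) differed by less than the pooled SD of 30.5 FPKM. As deposited, the sum was lower in iPKO in all 4 pairs of libraries with the same number. The sign of that difference depended on the scaling, at -25.7 FPKM as deposited and 5.56 FPKM after median-ratio scaling, and its size on single libraries, at -12.4 FPKM without iPKO 3, -16.7 FPKM without iPHet 2 and -40.7 FPKM without iPKO 2. As shares of the family sum, which scaling a whole library by 1 factor cannot alter, Srsf6 made up 16.7% ± 0.740 in iPKO and 19.2% ± 0.116 in iPHet. Srsf9 made up 3.52% ± 0.286 in iPKO and 4.77% ± 0.370 in iPHet. Srsf11 took 10.7% ± 0.413 in iPKO and 8.51% ± 0.110 in iPHet, and Srsf7 took 9.997% ± 0.398 in iPKO and 7.86% ± 0.122 in iPHet (SD, n = 4 each). Because shares sum to a whole, a gain in some members lowers the others.

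The level of the members spanned more than a factor of 10. In iPKO the order from high to low was Srsf5, Srsf2, Srsf6, Srsf3, Srsf11, Srsf7, Srsf10, Srsf9, Srsf4 and Srsf1. In iPHet it was Srsf5, Srsf6, Srsf2, Srsf3, Srsf11, Srsf7, Srsf10, Srsf9, Srsf1 and Srsf4. Neighbours whose ranges overlapped in iPKO were Srsf5 with Srsf2, Srsf2 with Srsf6, and Srsf11 with Srsf7. In iPHet they were Srsf5 with Srsf6, Srsf10 with Srsf9, and Srsf1 with Srsf4.

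Srsf3 and Srsf7 are close relatives that shuttle between nucleus and cytoplasm and help to export messenger RNA as adaptors of the export receptor NXF1. Srsf7 differs by a zinc knuckle beside its RNA recognition motif. It lies on chromosome 17 at 80200089 to 80207305 (mm10, minus strand, ENSMUSG00000024097), and its promoter stands first among the sequences above. Srsf7 was at 88.8, 101, 86.4 and 98.8 FPKM in iPKO libraries 1 to 4, against 75.4, 78.6, 73.7 and 74.5 FPKM in iPHet libraries 1 to 4. Every iPKO library was above every iPHet library, and the even-numbered iPKO libraries were the highest. Srsf7 rose by a log2 change of 0.30 (SE 0.07, limma adjusted p = 0.0194), and the odd libraries alone gave 0.23, the even ones 0.38. The call ended without iPKO 4 or iPHet 1, 3 or 4 (limma adjusted p of 0.0502 to 0.0551).

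The deposited values of Srsf7 carry a limit of their own. In all 8 libraries its FPKM lay below the lower bound of its own deposited confidence interval, at 0.802 to 0.893 of the interval's midpoint. Taken from the midpoints, its level was 114 ± 11.01 FPKM in iPKO and 89.5 ± 4.44 FPKM in iPHet (SD, n = 4 each). The groups were apart there as well, and limma gave an adjusted p = 0.0268.

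Srsf3, the smallest protein of the family, did not pass the test. It was at 112, 139, 109 and 136 FPKM in iPKO libraries 1 to 4, against 129, 138, 128 and 136 FPKM in iPHet libraries 1 to 4. The even-numbered libraries of the genotypes lay together and the odd-numbered iPKO libraries were low, so that the log2 change was -0.22 among odd libraries and 0.0036 among even ones. Over all 8 libraries the log2 change was -0.11, with a 95% interval from -0.32 to 0.11. Whether the odd and even changes differ was not tested.

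The ratio of Srsf7 to Srsf3 within a library depends little on how libraries are scaled to each other. The log2 ratio was -0.33, -0.46, -0.33 and -0.46 in iPKO libraries 1 to 4, against -0.77, -0.81, -0.78 and -0.86 in iPHet libraries 1 to 4. It was 0.41 higher in iPKO, in an exact two-sided permutation test with p = 0.0286, the smallest that 4 against 4 libraries allow. Adjusted over the 5 ratios compared, the permutation p was 0.0476. That adjustment counts the 5 ratios as separate, although those among Srsf4, Srsf5 and Srsf6 depend on each other. With libraries paired by number, the exact permutation p was 0.125, the smallest that 4 pairs allow, so the paired test could not pass 0.05. Among odd libraries the difference was 0.45 and among even libraries 0.37. With pairs averaged, a permutation test of 2 against 2 could not pass the threshold and was not run.

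Srsf11 encodes a protein with an RNA recognition motif and an arginine-serine tail that associates with the splicing factor U2AF at the 3′ splice site. It lies on chromosome 3 at 158010473 to 158036639 (mm10, minus strand, ENSMUSG00000055436). GENCODE lists 19 transcripts for it, of which 5 are coding, 11 keep an intron and 3 are marked as targets of nonsense-mediated decay, more transcripts than for any of the other 9 genes. Srsf11 was at 102, 103, 98.7 and 97.1 FPKM in iPKO libraries 1 to 4, against 80.9, 83.8, 78.7 and 84.0 FPKM in iPHet libraries 1 to 4. The groups were apart by more than the spread within either. Srsf11 rose by a log2 change of 0.29 (SE 0.05, limma adjusted p = 0.0092), with 0.33 among odd libraries and 0.25 among even ones, and was called whichever of the 8 libraries was left out (limma adjusted p of 0.0211 to 0.0303). The annotated gene Gm43362 overlaps Srsf11 on the same strand, so their reads can be exchanged.

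Srsf4, Srsf5 and Srsf6 form a subfamily with a pair of RNA recognition motifs and a long arginine-serine tail. Srsf6 lies on chromosome 2 at 162931528 to 162937121 (mm10, plus strand, ENSMUSG00000016921). It was at 161, 161, 153 and 149.99 FPKM in iPKO libraries 1 to 4, against 182, 189, 181 and 185 FPKM in iPHet libraries 1 to 4. All iPKO libraries were below all iPHet libraries, with a spread of a few percent within each genotype. On the log2 scale Srsf6 fell by 0.24 (SE 0.05, limma adjusted p = 0.0205), with changes of -0.21 among odd and -0.27 among even libraries. It was not called after quantile normalization (limma adjusted p = 0.098) or median-ratio scaling (0.0761), nor without iPKO 3 or 4 or iPHet 2 or 4 (0.0538 to 0.0573).

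Srsf5, the most abundant SR transcript in both genotypes, was at 195, 176, 192 and 173 FPKM in iPKO libraries 1 to 4, against 192, 189, 188 and 184 FPKM in iPHet libraries 1 to 4. The ranges overlapped, and its log2 change of -0.03 had a 95% interval from -0.17 to 0.11. It changed sign, to 0.05, after quantile normalization. Srsf4, whose protein has the longest tail of the subfamily, was at 16.6, 17.3, 15.1 and 16.5 FPKM in iPKO libraries 1 to 4, against 15.4, 13.3, 15.2 and 15.0 FPKM in iPHet libraries 1 to 4. The lowest iPKO library was below 2 iPHet libraries, and Srsf4 was not called (log2 change 0.15, 95% interval -0.01 to 0.31, limma adjusted p = 0.19). The genes A930004J17Rik, on the same strand, and Gm12992, on the other, overlap Srsf4, so reads can be exchanged. The FPKM of Srsf4 lay above its own deposited upper bound in all 8 libraries, at 1.25 to 1.34 times the midpoint. The midpoints of the genotypes did not overlap, at 12.7 ± 0.452 FPKM in iPKO and 11.1 ± 0.810 FPKM in iPHet (SD, n = 4 each), and Srsf4 was not called on them either (limma adjusted p = 0.128).

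Srsf6 was lower in iPKO against both of its relatives when each library was counted as separate. The log2 ratio of Srsf6 to Srsf5 averaged -0.23 ± 0.09 in iPKO and -0.03 ± 0.04 in iPHet (SD, n = 4 each), a difference of -0.21. The log2 ratio of Srsf6 to Srsf4 averaged 3.18 ± 0.06 in iPKO and 3.57 ± 0.12 in iPHet (SD, n = 4 each), a difference of -0.39. The groups did not overlap for either ratio, and the exact two-sided permutation test gave p = 0.0286 for each, or 0.0476 adjusted over the 5 ratios. The ratio of Srsf6 to Srsf4 follows from the ratios of Srsf6 and of Srsf4 to Srsf5, so the 5 ratios are not separate tests. The adjusted p counts them as separate, and it was not computed without the redundant ratio. Paired by number, the exact permutation p was 0.125 for each, again the smallest possible with 4 pairs. For Srsf4 to Srsf5 the log2 ratio averaged -3.41 ± 0.14 in iPKO and -3.59 ± 0.09 in iPHet (SD, n = 4 each), and that difference did not pass (exact permutation p = 0.114, adjusted 0.143). Among odd libraries alone it was 0.022, among even ones 0.34.

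**Figure D2:**
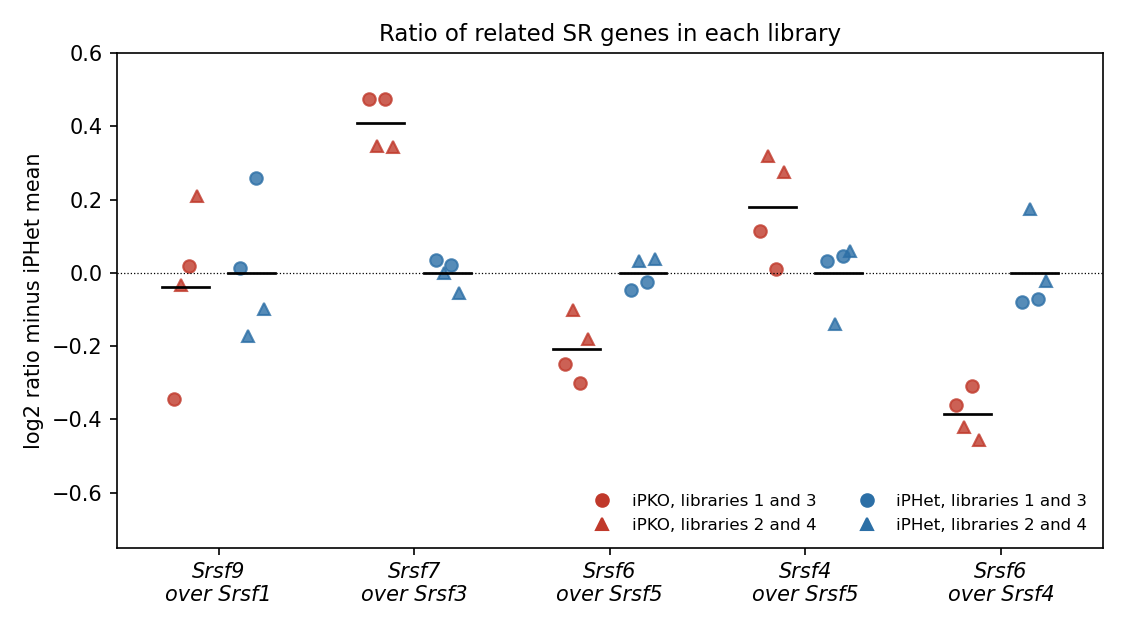
Log2 ratio of FPKM + 1 between related SR genes in each library, drawn as the distance from the mean of the 4 iPHet libraries; iPKO is red at the left, iPHet blue at the right, circles are libraries 1 and 3, triangles libraries 2 and 4, and black bars are means. Srsf7 over Srsf3 is higher by 0.41 in iPKO, Srsf6 over Srsf5 lower by 0.21 and Srsf6 over Srsf4 lower by 0.39 without overlap, while Srsf9 over Srsf1 is mixed.

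Srsf1 and Srsf9 are related proteins with a pair of RNA recognition motifs, and Srsf1 is the founding member of the family, with roles in splicing, export and decay of messenger RNA. Srsf9 lies on chromosome 5 at 115327177 to 115333080 (mm10, plus strand, ENSMUSG00000029538). It was at 29.4, 33.0, 33.4 and 36.0 FPKM in iPKO libraries 1 to 4, against 40.8, 47.4, 45.1 and 50.3 FPKM in iPHet libraries 1 to 4. The groups did not overlap, and library 1 was the lowest of each genotype. Srsf9 fell by 0.46 on the log2 scale (SE 0.09, limma adjusted p = 0.0103), to a mean 1.39-fold lower in iPKO, with log2 changes of -0.44 among odd and -0.49 among even libraries. The call held whichever of the 8 libraries was left out and after either scaling (limma adjusted p of 0.0134 to 0.0311). Its FPKM stood at the middle of its bounds in all libraries.

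Srsf1 had a mean that was lower by the same factor, 1.39-fold, and was not called. It was at 11.9, 10.6, 10.3 and 9.66 FPKM in iPKO libraries 1 to 4, against 12.8, 17.1, 11.8 and 17.3 FPKM in iPHet libraries 1 to 4. The iPKO libraries lay close together, while the even-numbered iPHet libraries were well above the odd-numbered ones, and iPHet 3 was just below iPKO 1. The log2 change of -0.43 (SE 0.13, 95% interval -0.73 to -0.12, limma adjusted p = 0.0632) averaged -0.14 among odd libraries and -0.71 among even ones. It was called in the even libraries alone (limma adjusted p = 0.00515), without iPHet 3 (0.0389) and with an odd/even term (0.0299). The deposited bounds of Srsf1 were the widest of the 10 genes, with a half-width of 17.5% to 24.0% of the midpoint against 2.06% to 13.02% for the other genes. Its midpoints did not overlap, at 9.71 ± 0.540 FPKM in iPKO and 12.50 ± 1.78 FPKM in iPHet (SD, n = 4 each), with a limma adjusted p = 0.0606. The antisense gene Gm11508 overlaps it, and strand is not given in the sources used here, so reads of the 2 genes cannot be told apart. The log2 ratio of Srsf9 to Srsf1 averaged 1.55 ± 0.23 in iPKO and 1.59 ± 0.19 in iPHet (SD, n = 4 each, exact permutation p = 0.857, adjusted 0.857). The difference was -0.30 among odd libraries and 0.22 among even ones.

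Srsf2 and Srsf10 were not called. Srsf2, which binds exon enhancers and also acts in the release of paused RNA polymerase, was at 148, 176, 147 and 168 FPKM in iPKO libraries 1 to 4, against 170, 163, 166 and 155 FPKM in iPHet libraries 1 to 4. The odd-numbered iPKO libraries were the lowest of the 8, at a log2 change of -0.19, and the even-numbered iPKO libraries lay above the even-numbered iPHet libraries, at a log2 change of 0.11. The pooled log2 change was -0.04 (95% interval -0.21 to 0.14). The genes Mettl23 and Mfsd11 overlap Srsf2 on the other strand, and their reads cannot be told apart from its own where strand is not used.

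Srsf10 encodes a factor that turns into a general splicing repressor when it is dephosphorylated, as in mitosis or after heat shock. It was at 54.3, 64.7, 51.7 and 61.9 FPKM in iPKO libraries 1 to 4, against 53.0, 68.6, 48.5 and 68.8 FPKM in iPHet libraries 1 to 4. Even-numbered libraries were higher than odd-numbered ones in both genotypes, and the genotypes overlapped. Its log2 change was -0.03, with a 95% interval from -0.33 to 0.28. The sign changed with scaling for both genes, to 0.05 for Srsf2 and 0.03 for Srsf10 after quantile normalization.

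**Figure D3:**
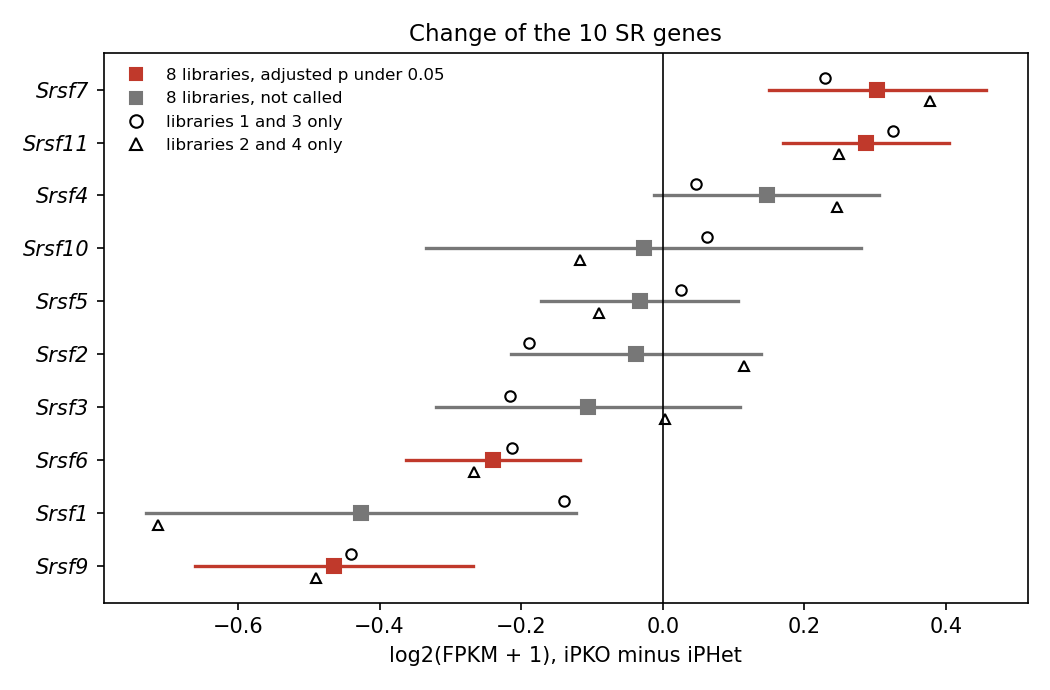
Log2 change of log2(FPKM + 1), iPKO minus iPHet, for the 10 SR genes. Squares are the estimate from all 8 libraries with its 95% interval, red where the limma adjusted p was under 0.05; open circles are libraries 1 and 3 alone and open triangles libraries 2 and 4 alone. The circle and triangle lie on the same side of 0 for Srsf7, Srsf11, Srsf4, Srsf6, Srsf1 and Srsf9, and on opposite sides for Srsf10, Srsf5, Srsf2 and Srsf3.

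The 10 genes differed in how well the deposited values were determined. Of the 80 FPKM values of the family, 58 lay within their own deposited bounds, 12 lay below and 10 above. The 22 outside were all 8 values of Srsf7, all 8 of Srsf4, 3 of Srsf10, 2 of Srsf1 and 1 of Srsf11. When the midpoints of the bounds were tested in place of the FPKM values, a choice made after seeing the data, 2 SR genes were again called higher and 2 lower, against 16.5% of all tested genes. GENCODE marks at least 1 transcript of 9 of the 10 genes as a target of nonsense-mediated decay, Srsf10 being the exception. Whether the gene-level FPKM sums over such transcripts is not known, because the sources used here name no quantifier. Values per transcript were not analysed here.

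**Figure D4:**
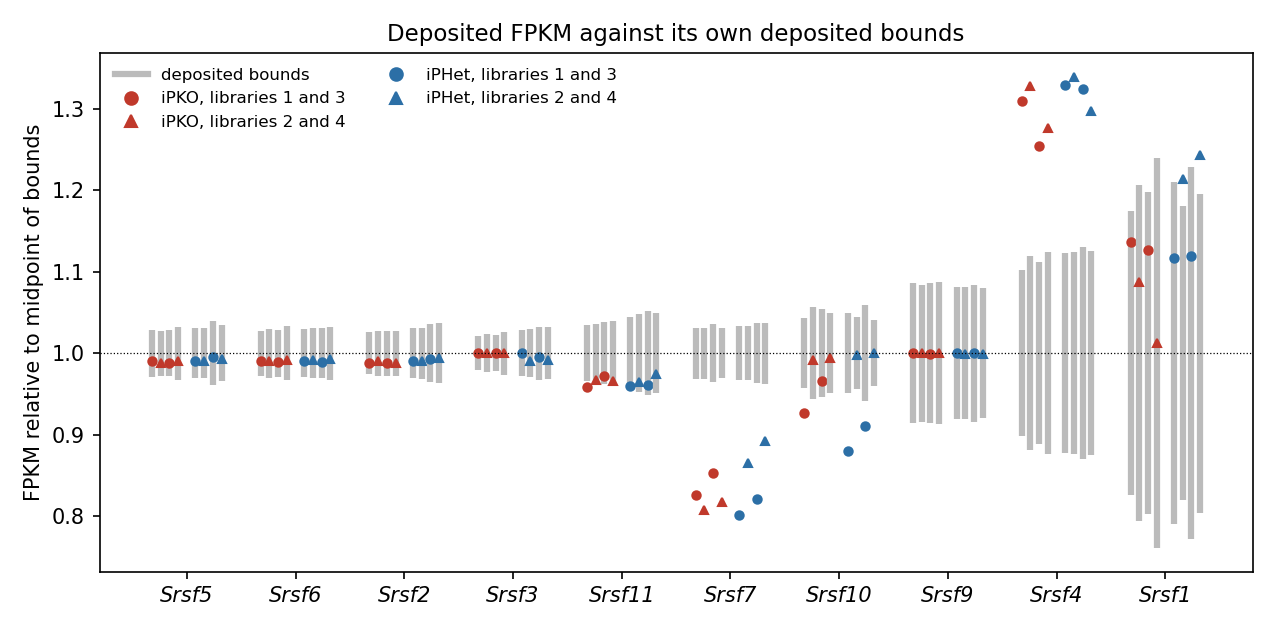
Deposited FPKM of the 10 SR genes divided by the midpoint of the deposited bounds of the same library; grey bars run from the lower to the upper bound, red is iPKO at the left, blue is iPHet at the right, circles are libraries 1 and 3 and triangles libraries 2 and 4. All values of Srsf4 lie above their bounds and all values of Srsf7 below them, in both genotypes, while Srsf9 lies at the middle.

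Genes that act on or beside the SR proteins were read from 2 lists. Of 9 genes for SR kinases and import 8 were tested, Srpk3 being below the filter; 1 rose, 1 fell and 6 were not called, at a median log2 change of 0.12. Clk3, a CLK kinase of the arginine-serine tail, was at 17.5, 12.2, 16.1 and 13.3 FPKM in iPKO libraries 1 to 4, against 26.9, 19.5, 24.9 and 19.0 FPKM in iPHet libraries 1 to 4, and fell by 0.58 on the log2 scale (SE 0.15, limma adjusted p = 0.0351). Prpf4b, a kinase of the assembling spliceosome, averaged 31.5 ± 3.56 FPKM in iPKO and 24.3 ± 2.38 FPKM in iPHet (SD, n = 4 each) and rose by 0.36 (SE 0.10, limma adjusted p = 0.0462). These 2 called genes of 8 stand against 15.8% called among all tested genes. With the replicate block the counts were 3 higher and 2 lower, against 27.5% called among all genes. The call of Clk3 ended without iPKO 2, 3 or 4 or iPHet 1 or 3 (limma adjusted p of 0.0557 to 0.0859), and that of Prpf4b whichever of the 8 libraries was left out (0.0537 to 0.107). With no filter on low values neither was called (0.057 for Clk3 and 0.0655 for Prpf4b), and Prpf4b was not called after median-ratio scaling (0.0535).

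Of 24 tested genes of SR-related splicing proteins, 4 rose, 0 fell and 20 were not called, at a median log2 change of 0.03. The 4 called genes of 24 are a share near the 15.8% called among all tested genes. With the replicate block the counts were 6 higher and 1 lower, against 27.5% called among all genes. Luc7l, a homologue of a yeast component of the U1 particle, averaged 68.8 ± 5.91 FPKM in iPKO and 43.7 ± 5.08 FPKM in iPHet (SD, n = 4 each) and rose by 0.64 on the log2 scale (SE 0.10, limma adjusted p = 0.00497). Rbm39, a splicing factor related to U2AF, averaged 305 ± 12.5 FPKM in iPKO and 231 ± 7.89 FPKM in iPHet (SD, n = 4 each) and rose by 0.40 (SE 0.06, limma adjusted p = 0.0045). Acin1, a component linked to the exon junction complex, and Tra2b, a splicing activator with arginine-serine tails at both ends, rose by 0.31 each (limma adjusted p of 0.0297 and 0.0448). All 4 had iPKO libraries above all iPHet libraries, as had 10.1% of all tested genes. The 4 had been called on these same libraries, so this is not separate evidence. Single libraries ended the calls of Acin1 (iPKO 2, 3 or 4, iPHet 1, 2 or 3, limma adjusted p of 0.0507 to 0.0721) and Tra2b (iPKO 2 or 4 or any 1 iPHet library, 0.0746 to 0.103), and Tra2b was not called with no filter (0.0608). None of these called genes of either list was called in the pair-averaged fits (limma adjusted p of at least 0.057).

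The genes whose pattern over the 8 libraries was most like that of an SR gene were sought for Srsf11 and Srsf9, the called members with the smallest p in each direction, among 8580 genes that averaged 5 FPKM or more. The measure was the root mean square difference of the centred log2 values. Nearest to Srsf11 were Tbk1 at 0.021, Atp7a at 0.024 and Tpp2 at 0.030. Nearest to Srsf9 were Fbxl14 at 0.032, Cenpm at 0.036 and Tomm34 at 0.054. None of these 6 is an SR gene.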

How the data were processed

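Total RNA of 8 embryonic stem cell libraries (4 iPKO, 4 iPHet) was sequenced as paired reads of 100 bases with an Illumina TruSeq RNA kit, per the labels' protocols. The authors deposited FPKM values per gene and library, which the file headers pair with lower and upper confidence bounds. Per the submitters' processing notes, Trimmomatic was used and mm10 was the build. The sources used here name no aligner, quantifier, strand setting or scaling between libraries. Absolute depth is unknown.

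Of 39013 rows per file, those of 1 identifier were summed, leaving 38991 genes. Genes whose iPKO or iPHet mean reached 1 FPKM were tested on log2(FPKM + 1), which understates changes of low genes, with limma 3.58.1 (intensity trend, no covariate) in R 4.3.3, adjusted by Benjamini-Hochberg over all 12462 genes, threshold 0.05. Ratios of related genes were tested by exact permutation (scipy 1.17.1) over 70 assignments. The limma step was tested on simulated data. GENCODE vM21 (GRCm38) gave gene and transcript types.

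Members, lists and tests were chosen with earlier results of these data known. The named genes were the 10 members, Prmt5, up to 4 called genes of each list of partners with the smallest p, and the 3 genes most like the leading member in each direction. Deviations from the group means correlated at 0.104, 0.162, 0.204 and 0.107 between libraries of the same number, all above 0.1, so the numbers were taken to pair the libraries, a pairing that no label states. Libraries of another number but the same parity correlated at 0.077 to 0.124, which overlaps these values, so the pairing cannot be told apart from the odd/even likeness. Alternatives covered the pseudocount, the filter, the scaling, the block, pair averages and each library left out.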

Additional observations from a re-analysis of the deposited data

Results flagged for a closer look

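The log2 ratio of Srsf4 to Srsf5 in iPHet 2, at -3.73, stood apart from the other 3 iPHet libraries, which lay between -3.56 and -3.53. Srsf4 was at 13.3 FPKM in that library and at 15.0 to 15.4 FPKM in the other iPHet libraries. It was the 1 value flagged among 34 groups of 4 libraries, and chance flags about 1 group in 20.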

How the results depend on the processing

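Srsf9 and Srsf11 kept their direction under all 21 alternatives and their call under all except the 3 fits of pair averages (limma adjusted p of 0.103 to 0.499 and of 0.265 to 0.612). Srsf6 and Srsf7 kept their direction throughout. Of the 10 SR genes 0 were called in each pair-averaged fit, also with an odd/even term and among protein-coding genes, and 2 to 4 without 1 library, the fewest without iPKO 4 or iPHet 4, against 10.1% to 11.4% of all genes. With the replicate block 4 were called, and it changed no call of a single SR gene, while the 3 ratios that passed had an exact permutation p of 0.125 in pairs. The count over all genes, 1973 (785 higher, 1188 lower), was 3427 with the replicate block, 4729 with an odd/even term, 7 and 6 with pair averages without and with that term, 198 for protein-coding averages with it, 5700 and 4932 in the odd-numbered and even-numbered libraries alone, and 1264 to 1416 without 1 library. Quantile normalization gave 936 higher and 946 lower, and median-ratio scaling 960 and 851. Prmt5, at a log2 change of -2.13, which averaging of balanced pairs cannot move, was not called with pair averages (limma adjusted p = 0.191, or 0.0809 with the odd/even term) and was called among protein-coding genes with that term (0.00703).

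Uncalled genes changed sign under some settings. With quantile normalization the log2 changes of Srsf2, Srsf5 and Srsf10 were 0.051, 0.054 and 0.030, with median-ratio scaling 0.010, 0.015 and 0.020. In the odd-numbered libraries Srsf5 was 0.025 and Srsf10 0.062, and in the even-numbered ones Srsf2 was 0.11 and Srsf3 0.0036. Without 1 library Srsf2 ranged from -0.085 to 0.0014 and Srsf10 from -0.12 to 0.045. The ratio of Srsf9 to Srsf1 was -0.30 in odd-numbered and 0.22 in even-numbered libraries, and -0.12 to 0.064 without 1 library. Odd and even values were 0.022 and 0.34 for Srsf4 to Srsf5, and -0.26 and -0.51 for Srsf6 to Srsf4. The family sum differed by 26.7 FPKM after quantile normalization and 5.56 FPKM after median-ratio scaling. The causes were not tested. Tests of ratios with 1 library left out cannot go below p = 0.0571 by exact permutation, so only their values were compared.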

Other observations

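The gap between FPKM values and their own deposited bounds was not particular to SR genes. Among genes of at least 5 FPKM, 30.2% to 33.2% of values lay outside their bounds in the iPKO libraries and 26.4% to 31.6% in the iPHet libraries.

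Srsf12, a relative of Srsf10 that was not among the 10 genes, was at 1.71, 1.10, 1.57 and 1.32 FPKM in iPKO libraries 1 to 4, against 1.19, 0.386, 0.987 and 0.350 FPKM in iPHet libraries 1 to 4. It was not called (limma adjusted p = 0.107), was called with the replicate block (0.0351) and in the even libraries alone (0.0156), and was picked out after its values were seen.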
